A study of Mus musculus with 14 samples.

Results

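The comparison described here sets *Tcf21* lineage–traced cardiac fibroblasts taken from the infarct 2 weeks after myocardial infarction (MI) against the same lineage taken from uninjured hearts, over every gene that the array table names. The members were chosen by label: both arrays of the 2-week group and all 3 arrays of the uninjured group, 5 of the 14 arrays in the series, and all 19505 named genes. The 2-week cells came from the infarct area after permanent ligation of the left coronary artery, and the uninjured cells came from the left ventricle. All animals carried TCF21-MerCreMer and R26GFP on a background labelled C57BL/6, and all had been given tamoxifen, so that cells which had used the *Tcf21* gene before surgery kept GFP whatever genes they used later. The MerCreMer cassette sits in 1 copy of *Tcf21*, so each group carried the same altered allele, and the methods name an FVB line as the source of the reporter. GFP-positive cells were sorted, and their RNA was labelled and hybridized to Clariom S mouse arrays without culture. The labels call the arrays of a group biological replicates and give neither the age nor the sex of the mice, nor whether hearts were pooled.

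Fibroblasts of the healthy heart keep up the collagen network between muscle cells and express *Tcf21* and a set of carrier, retinoid and detoxification genes. After an infarct they divide, move into the dead muscle, become contractile myofibroblasts and lay down the scar, which is then crosslinked and matures into a stiff, tendon-like tissue. The 2-week infarct lies in the period in which the scar matures. The question of the comparison was which genes separate fibroblasts of the maturing scar from resting fibroblasts.

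A value is a log2 signal, on which a difference of 1 is a 2-fold change. The background level was 5.89, the level that 95% of 1410 genes for smell and pheromone receptors, which fibroblasts do not use, stayed under, and 10822 to 11165 genes per array lay above it in the 5 arrays. Where every array of a group was below background, the fold is given as a lower bound (at least), with those arrays set at the background level. Single uninjured arrays lay below background for *Cthrc1*, *Emb*, *Fam180a*, *Tnmd*, *Fzd6* and *Mir675*, 2 of the 3 for *Col11a1*, *P4ha3* and *Scx*, and 1 of the 2-week arrays for *Ccl8*, and the folds of these genes are not bounds. Differences are given as 2 weeks minus uninjured with their standard error (SE), from limma fitted to all 14 arrays, for n = 2 arrays at 2 weeks and n = 3 uninjured arrays, and a gene is called at a Benjamini-Hochberg adjusted p under 0.05 over all genes. The 2 arrays of the 2-week group correlated at 0.987, the uninjured arrays at 0.971 to 0.991, and arrays of the 2 groups at 0.962 to 0.978. The arrays numbered 1 stood apart in every group: pairs of them held 481 to 808 exactly equal rows, against at most 2 in any other pair, and 7081 genes differed between them and the others. For this reason a fit with the arrays numbered 1 as a block stands beside the plain fit. The Y-linked genes *Uty* and *Kdm5d* were below background in both 2-week arrays and above it in the 3 uninjured arrays: *Uty* had 4.31 and 4.18 at 2 weeks, against 9.67, 9.58 and 9.04 in uninjured fibroblasts (-5.19, adjusted p = 0.0262, not called without 2-week array 1 or 2 or uninjured array 2 or 3, highest adjusted p = 0.213), and *Kdm5d* differed by -3.03 (adjusted p = 0.0467, not called without any 1 of the 5 arrays, highest adjusted p = 0.322). The groups therefore also differ in a sex-linked signal, and its part in the results cannot be told apart from that of the infarct. Of all 14 arrays, 4 were low in both genes: both 2-week arrays, 7-day array 2 and 4-week array 1. With those as a block (the *Uty* block) 77 genes were called higher and 29 lower, 106 instead of 486, with an SE 1.42 times as large. Of the 486, 443 kept their direction and a change of at least 2-fold. The block did not vary within the 2-week or the uninjured arrays, so it was estimated from the 7-day and 4-week groups alone. There, 4-week array 1 is also an array numbered 1.

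Of the 19505 genes, 486 were called (2.49%), 255 higher (1.31%) and 231 lower (1.18%) at 2 weeks. With the block, 968 were called (4.96%), 477 higher (2.45%) and 491 lower (2.52%), and all 486 were among them. Of the 486, 473 changed at least 2-fold. The arrays of the 2 groups did not overlap for any of the 486, and they did not overlap for 24.8% of all genes either. Each call rests on few arrays: 170 and 153 of the 486 were called again without 2-week array 1 and array 2, and 442, 304 and 301 without uninjured array 1, 2 and 3. In the text below, a called gene given without remark kept its call in all 5 of these fits, and for the others the arrays without which the call was lost are named with the highest adjusted p of these fits. List counts against uninjured fibroblasts stand beside the shares of all genes, 1.31% higher and 1.18% lower, or 2.45% and 2.52% with the arrays numbered 1 as a block. Members and lists were chosen with earlier results of these data known, so no list count is independent of them. When the arrays numbered 1 and the remaining arrays were compared separately, 417 of the 486 genes changed at least 2-fold in both sets. All 486 had the same direction in both, which follows from arrays that do not overlap and is no further check. The count of 417 is no separate check either, as the 486 were picked from these same arrays and 473 of them changed at least 2-fold.

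**Figure D1:**
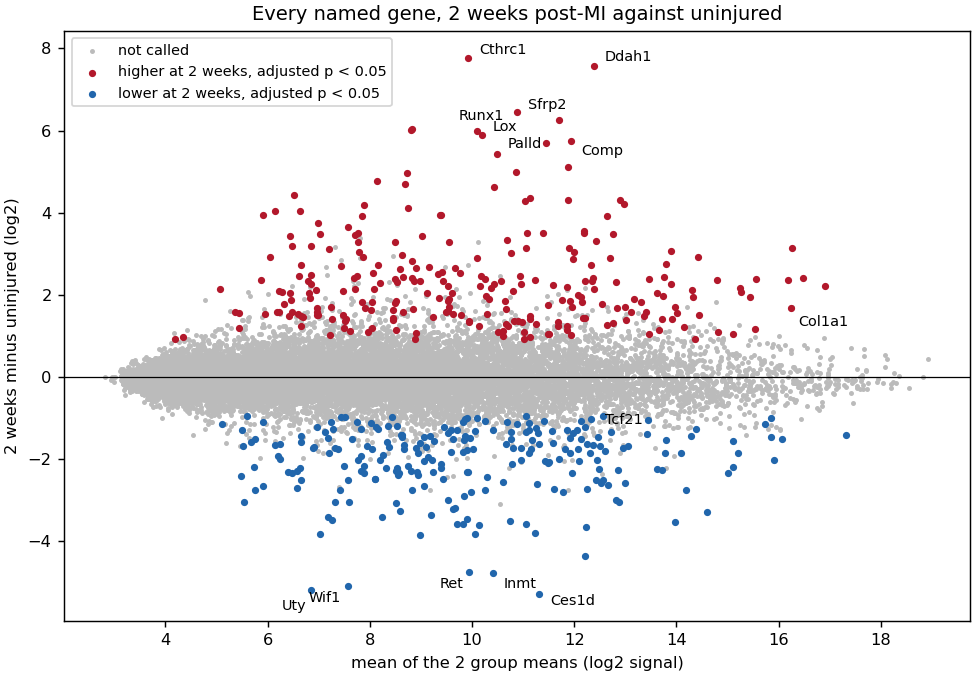
Log2 difference, 2 weeks minus uninjured, against the mean of both group means for each of 19505 genes, with the called genes in red (255 higher) and blue (231 lower). Cthrc1 and Ddah1 lie highest, and Ces1d, Uty, Wif1, Inmt and Ret lie lowest.

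The widest rise was that of *Cthrc1*, a secreted collagen triple helix repeat protein of injured and remodelling tissue. It had 13.97 and 13.65 at 2 weeks, against 6.17, 6.29 and 5.68 in uninjured fibroblasts, a 218-fold difference (7.77 ± 0.31, SE, adjusted p = 1.98e-08). The 3 uninjured arrays were near background, and both 2-week arrays were in the range of abundant transcripts. *Ddah1*, an enzyme that degrades the nitric oxide synthase inhibitor asymmetric dimethylarginine, had 16.24 and 16.10 at 2 weeks, against 7.74, 9.33 and 8.75 in uninjured fibroblasts (189-fold, adjusted p = 3.38e-06). *Sfrp2*, a secreted Frizzled-related protein that binds Wnt ligands, had 14.24 and 13.95 at 2 weeks, against 6.70, 8.23 and 8.03 in uninjured fibroblasts (87.1-fold, adjusted p = 0.000149). All 3 genes were separated by more than 4 log2 units between the lowest 2-week array and the highest uninjured array.

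Others among the 15 largest rises were *Emb*, embigin, an immunoglobulin-family membrane protein, with 12.09 and 11.59 at 2 weeks, against 5.16, 6.29 and 5.98 in uninjured fibroblasts (65.4-fold, adjusted p = 0.000145), and *Cpxm2*, a carboxypeptidase-like protein without known enzyme activity, with 14.69 and 14.96 at 2 weeks, against 6.86, 9.30 and 9.53 in uninjured fibroblasts (76.7-fold, adjusted p = 0.00357). The *Cpxm2* call was lost without 2-week array 2 (adjusted p = 0.0617). *Fam180a* rose 31.1-fold, with 11.16 and 11.26 at 2 weeks, against 4.61, 7.10 and 7.05 in uninjured fibroblasts. *Comp*, *Ltbp2*, *Lox*, *Runx1*, *Palld*, *Tnc*, *Fmod*, *Col11a1* and *Mir675* complete the 15 and are described with their groups.

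**Figure D2:**
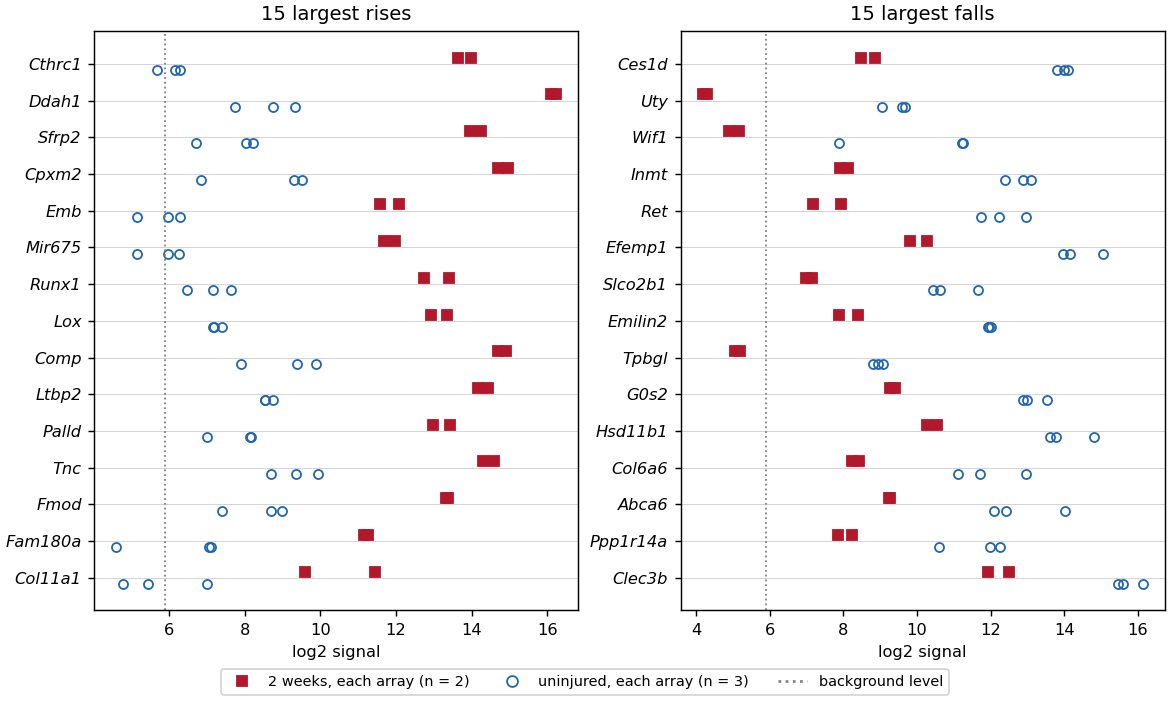
Log2 signal of each array for the 15 largest rises and the 15 largest falls that pass the rule of the naming, with the 2-week arrays as red squares above the uninjured arrays as open blue circles and the background level of 5.89 dotted. In every row the squares lie on one side of all circles, by over 4 units for Cthrc1, Ddah1 and Ces1d, among others.

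The falls were led by *Ces1d*, a lipid-hydrolysing carboxylesterase, with 8.86 and 8.48 at 2 weeks, against 14.09, 13.98 and 13.79 in uninjured fibroblasts (38.8-fold lower, adjusted p = 3.1e-05). *Inmt*, which methylates indole amines, had 8.12 and 7.92 at 2 weeks, against 13.10, 12.38 and 12.88 in uninjured fibroblasts (27.3-fold lower, adjusted p = 0.0161), and the call was lost without uninjured array 3 or either 2-week array (highest adjusted p = 0.155). *Ret*, the receptor tyrosine kinase for the glial cell line-derived ligands, had 7.94 and 7.18 at 2 weeks, against 12.95, 12.22 and 11.75 in uninjured fibroblasts (26.9-fold lower, adjusted p = 0.000657). *Hsd11b1*, the enzyme that regenerates active glucocorticoid, was 12.5-fold lower (-3.65, adjusted p = 0.00135), and *G0s2*, an inhibitor of the triglyceride lipase, was 14-fold lower. *Slco2b1*, an organic anion transporter, was 14.3-fold lower and *Tpbgl* at least 8.24-fold lower. None of the genes *Ces1d*, *Ret*, *Hsd11b1*, *G0s2*, *Slco2b1* or *Tpbgl* lost its call on leaving out an array. With the *Uty* block in limma, *Ces1d* and *Tpbgl* kept their calls (adjusted p = 0.0022 and 0.0325). *Ret*, *Hsd11b1*, *G0s2* and *Slco2b1* lost theirs in that fit (adjusted p = 0.0526, 0.11, 0.0625 and 0.0622). *Wif1*, a Wnt inhibitor, is given with the Wnt genes.

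The 37 measured genes of the quiescent, or resting, fibroblast list (40 written) had a median difference of -1.84, against -0.0206 for all genes. Of these 37, 19 were called lower and 1 higher, where 1.18% of all genes were called lower and 1.31% higher. The list was written with earlier results of these data known, so its count and median are not independent of them. With the arrays numbered 1 as a block 22 were lower and 1 higher, and with the *Uty* block 1 was lower and none higher. The falls included *Ces1d*, *Inmt*, *Ret* and *Hsd11b1*, *Penk* (enkephalin precursor, -3.51, not called without 2-week array 1 or 2, highest adjusted p = 0.158), *Adh1* (alcohol dehydrogenase that oxidizes retinol, at least 8-fold lower), the transporter *Abca6* (-3.59, not called without 2-week array 1 or 2, highest adjusted p = 0.0865) and *Gstm1* (-2.33). The 1 gene of the list that was higher, *Mfap4*, an elastic fibre protein, had 14.89 and 14.77 at 2 weeks, against 12.18, 13.50 and 13.68 in uninjured fibroblasts (1.71, adjusted p = 0.0444, not called without 2-week array 1 or 2 or uninjured array 1 or 2, highest adjusted p = 0.29). *Tcf21* itself, which encodes the transcription factor used for the tracing, had 11.74 and 11.73 at 2 weeks, against 12.33, 13.56 and 13.66 in uninjured fibroblasts (2.73-fold lower, adjusted p = 0.0264), not called without 2-week array 1 or 2 or uninjured array 2 or 3, highest adjusted p = 0.209. Uninjured array 1 was lower than the other uninjured arrays for *Tcf21*, and both 2-week arrays were lower still. *Dpp4*, *Cd34* and *Pi16*, surface or secreted markers of adventitial fibroblasts, were not called in the plain fit and had differences of -1.84, -0.76 and -0.55, and *Dpp4* was called lower with the arrays numbered 1 as a block (adjusted p = 0.0128). *Pi16* stayed abundant in both groups, with 16.09 and 16.04 at 2 weeks, against 16.57, 16.51 and 16.76 in uninjured fibroblasts. In bulk RNA of this kind, fewer cells of a type and less RNA per cell cannot be told apart.

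Of 19 measured fibroblast identity genes, 4 were higher and 3 lower. The fibrillar collagen genes *Col1a1*, *Col1a2* and *Col3a1* and *Pdgfrb*, a receptor for platelet-derived growth factor, were higher, and *Tcf21*, *Gsn* (gelsolin) and *Thy1*, a surface glycoprotein, were lower. The calls of *Pdgfrb* (1.09, not called without 2-week array 1 or 2 or uninjured array 2 or 3, highest adjusted p = 0.192), *Gsn* (-1.41, not called without 2-week array 1 or 2 or uninjured array 2 or 3, highest adjusted p = 0.253) and *Thy1* (-1.21, not called without 2-week array 1 or 2, highest adjusted p = 0.116) each rest on several arrays. *Vim*, encoding vimentin, had 14.18 and 14.42 at 2 weeks, against 13.97, 14.48 and 14.71 in uninjured fibroblasts, and *Dcn* (decorin) had 18.82 and 18.83 against 19.01, 18.83 and 18.66 in the same order, and neither was called. *Dcn*, a defining fibroblast gene, thus lay near the highest value on any array (19.5) in both groups.

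The largest group of rises held structural matrix genes. Of the 44 measured matrix glycoprotein genes, 17 were called higher and 5 lower, with a median of 0.93 against -0.0206 for all genes. Several members (*Cthrc1*, *Tnc*, *Fn1*, *Postn*, *Comp*, *Cilp2*) were selected by the study from these arrays, so the count is not independent of its selection. With the *Uty* block 10 were higher and 1 lower. *Fn1*, fibronectin, had 17.88 and 17.79 at 2 weeks, against 14.65, 14.67 and 14.77 in uninjured fibroblasts (8.83-fold, adjusted p = 9.87e-06). *Postn*, periostin of activated fibroblasts, had 17.81 and 17.57 at 2 weeks, against 15.59, 15.13 and 15.09 in uninjured fibroblasts (5.35-fold, adjusted p = 0.000183). The 2-week arrays of both genes lay above 17, near the top of the scale, and neither gene overlapped between the groups.

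*Tnc*, tenascin C, a glycoprotein of tissue repair, had 14.59 and 14.29 at 2 weeks, against 9.95, 9.35 and 8.70 in uninjured fibroblasts (34.4-fold, adjusted p = 1.07e-05). *Ltbp2*, which lies along elastic microfibrils, had 14.44 and 14.17 at 2 weeks, against 8.53, 8.53 and 8.75 in uninjured fibroblasts (52-fold, adjusted p = 7.95e-08), with the smallest SE of the 5 largest matrix rises (0.27). *Ccn5*, a matricellular CCN protein, rose 19.7-fold, the closely related *Ccn2* (connective tissue growth factor) 5.86-fold (not called without 2-week array 1 or 2, highest adjusted p = 0.0994), *Eln* (elastin) 5.21-fold, *Thbs4* (thrombospondin 4) 15.5-fold and *Cilp* 7.61-fold (not called without 2-week array 2, adjusted p = 0.0682). The 5 that fell were *Efemp1* and *Emilin2*, both of elastic fibres, *Tnxb* (tenascin X, -2.18, not called without 2-week array 1 or 2, highest adjusted p = 0.138), *Vtn* (vitronectin, -2.21, not called without 2-week array 2, adjusted p = 0.102) and *Smoc2* (-2.51, not called without 2-week array 1 or 2, highest adjusted p = 0.358). *Emilin2* averaged 8.14 ± 0.38 at 2 weeks and 11.96 ± 0.04 in uninjured fibroblasts (SD, n = 2 and 3, 14.1-fold lower, adjusted p = 3.07e-05), so that the 3 uninjured arrays lay close together and the 2-week arrays more than 3 units below. *Efemp1* was 20.5-fold lower, not called without 2-week array 2, adjusted p = 0.0589. Genes of elastic fibres thus lay on both sides, *Eln*, *Ltbp2* and *Mfap4* higher and *Efemp1* and *Emilin2* lower.

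Among 11 fibrillar collagen genes, 6 were called higher and none lower, with a median of 1.58 where *Col2a1*, the cartilage collagen, lay below background in all 5 arrays, and with the *Uty* block 3 were higher. *Col1a1* had 16.99 and 17.19 at 2 weeks, against 15.19, 15.49 and 15.55 in uninjured fibroblasts (3.2-fold, adjusted p = 0.00271), and *Col1a2* and *Col3a1* rose 4.95-fold and 4.24-fold. *Col5a2*, which limits fibril width, rose by 1.59 and *Col27a1* by 1.58 (not called without 2-week array 1 or 2 or uninjured array 2 or 3, highest adjusted p = 0.263). *Col1a1* lost its call without 2-week array 2 (adjusted p = 0.0615). The widest fold of the group was that of *Col11a1*, a minor collagen that nucleates fibrils, with 11.45 and 9.60 at 2 weeks, against 7.00, 4.80 and 5.44 in uninjured fibroblasts (27.5-fold, adjusted p = 0.0142). Its 2-week arrays differed by 1.85 units, and the call was lost without uninjured array 2 or 3 or 2-week array 1 (highest adjusted p = 0.226). Of 30 other collagen genes, *Col14a1*, which coats fibrils, and *Col8a1* rose (a difference of 2.73 for *Col14a1*, at least 2.13-fold for *Col8a1*, which was not called without 2-week array 1 or 2 or uninjured array 2 or 3, highest adjusted p = 0.28), and *Col6a6* fell (-3.60, not called without any 1 of the 5 arrays, highest adjusted p = 0.277). Of 21 basement membrane genes, *Lamb1*, a laminin chain, was called lower (-2.23, not called without 2-week array 1 or 2 or uninjured array 1 or 2, highest adjusted p = 0.311) and 20 were not called, while the arrays numbered 1 as a block gave 2 higher and 3 lower and the *Uty* block none.

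Of 27 measured genes that process or crosslink collagen, 5 were called higher and none lower, where 1.31% of all genes were called higher and 1.18% lower. The study had selected *Lox*, a member of this list, from these arrays. *Lox*, lysyl oxidase, which starts the covalent crosslinks between collagen and elastin molecules, had 13.36 and 12.93 at 2 weeks, against 7.17, 7.39 and 7.20 in uninjured fibroblasts (59.4-fold, adjusted p = 3.05e-05). *P4ha3*, a subunit of the prolyl hydroxylase that stabilizes the triple helix, had 9.69 and 10.28 at 2 weeks, against 5.52, 5.83 and 6.00 in uninjured fibroblasts (18.3-fold). *Plod2*, a lysyl hydroxylase for crosslinking telopeptide lysines, rose 6.7-fold, *Loxl3*, a lysyl oxidase relative, 3.84-fold, and *P3h2*, a prolyl 3-hydroxylase, 5.17-fold (not called without 2-week array 2, adjusted p = 0.0809). The *Lox* arrays at 2 weeks were over 5 units above the highest uninjured array.

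Among 57 proteases and inhibitors 4 genes were higher, and 53 were not called, where the arrays numbered 1 as a block gave 5 higher and 3 lower. *Timp1*, an inhibitor of matrix metalloproteinases, had 13.58 and 13.33 at 2 weeks, against 10.73, 11.68 and 11.54 in uninjured fibroblasts (4.4-fold, not called without 2-week array 1, adjusted p = 0.0761). *Ctsk*, cathepsin K, a collagen-degrading cysteine protease, rose 3.61-fold and *Adamts6* 7.82-fold (not called without 2-week array 1 or 2, highest adjusted p = 0.14). *Adam12*, a membrane protease of muscle and scar tissue, had 6.11 and 6.35 at 2 weeks, against 4.44, 4.62 and 4.91 in uninjured fibroblasts (at least 1.26-fold, not called without 2-week array 1 or 2, highest adjusted p = 0.121), and the uninjured arrays were below background. *Mmp12*, macrophage elastase, was not called (1.97 ± 1.30, adjusted p = 0.651).

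Small leucine-rich proteoglycans had 2 called of 16, and 4 with the block. *Fmod*, fibromodulin, which binds collagen fibrils, had 13.32 and 13.38 at 2 weeks, against 7.39, 8.99 and 8.71 in uninjured fibroblasts (31.7-fold, adjusted p = 0.00024), and *Chad*, chondroadherin of cartilage, had 11.10 and 11.27 at 2 weeks, against 7.32, 8.03 and 8.33 in uninjured fibroblasts (9.79-fold, adjusted p = 0.000385). *Lum* and *Dcn*, the more abundant members, were not called (differences -0.06 and -0.01), and *Bgn* and *Aspn* were called only with the block (0.81 and 1.72).

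Cartilage and tendon share many matrix genes. Of the 34 measured cartilage genes, 6 were higher, none was lower, and 28 were not called (median 0.33), and of 25 tendon genes, 12 were higher and 1 lower (median 1.41). With the *Uty* block 3 of the cartilage genes were higher, and 8 of the tendon genes were higher and 1 lower. The lists share *Comp*, a thrombospondin-related protein of cartilage and tendon that the study had selected, as it had *Chad* and *Cilp2*. *Comp* had 14.70 and 14.92 at 2 weeks, against 7.92, 9.37 and 9.88 in uninjured fibroblasts (54-fold, adjusted p = 2.62e-05), *Cilp2* had 9.25 and 9.37 at 2 weeks, against 5.98, 6.38 and 6.44 in uninjured fibroblasts (8.27-fold), and *Tnmd*, tenomodulin of tendon cells, had 9.18 and 9.70 at 2 weeks, against 5.43, 6.07 and 6.43 in uninjured fibroblasts (11.1-fold). The defining cartilage genes *Acan*, *Col2a1*, *Hapln1* and *Sox9* were not called, with *Acan* at 7.98 and 8.23 against 6.99, 6.44 and 5.74 and *Sox9* at 12.02 and 12.15 against 11.64, 11.62 and 11.65 (2 weeks before uninjured). *Scx*, a tendon transcription factor, rose 3.45-fold (adjusted p = 0.0395, not called without 2-week array 1 or 2 or uninjured array 1 or 2, highest adjusted p = 0.433). *Clec3b*, tetranectin, was the 1 tendon-list gene that fell, with 11.93 and 12.50 at 2 weeks, against 16.12, 15.60 and 15.46 in uninjured fibroblasts (11.4-fold lower, adjusted p = 0.000183). The bone list had 2 higher (*Postn* and *Cdh11*) and 1 lower (*Bmp2*) of 21, *Cdh11* being not called without 2-week array 1 or 2 or uninjured array 2 or 3, highest adjusted p = 0.29, and the defining genes *Sp7*, *Ibsp* and *Bglap* stayed near background, with *Bglap* at 6.13 and 6.20 against 6.08, 5.65 and 6.11.

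**Figure D3:**
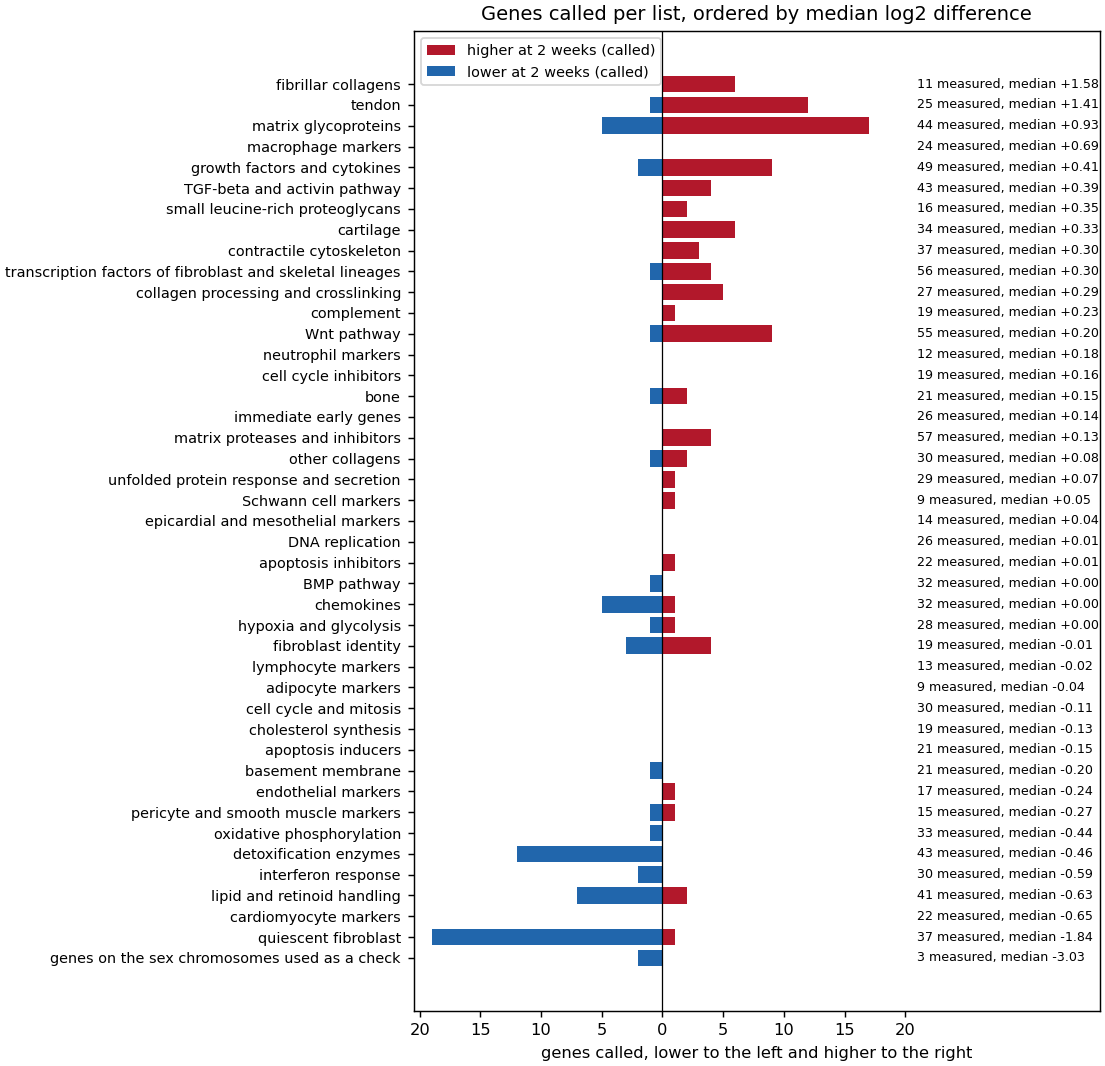
Number of genes called lower (blue, left) and higher (red, right) at 2 weeks for each gene list, with the number of genes measured and the median log2 difference at the right. The fibrillar collagen, tendon and matrix glycoprotein lists have the highest medians, from 1.58 to 0.93, and the quiescent, or resting, fibroblast list has the lowest apart from the sex-linked check, at -1.84.

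Of the 55 measured Wnt pathway genes 9 were higher and 1 lower, where 1.31% of all genes were called higher and 1.18% lower. The arrays numbered 1 as a block gave 12 higher and 1 lower, and the *Uty* block 1 higher and none lower. The Wnt inhibitors lay on both sides. *Sfrp1*, *Sfrp2*, *Frzb* and *Dkk3*, all secreted inhibitors or modulators, rose (6.32-fold, 87.1-fold, 4.32-fold and 5.41-fold), and *Wif1* had 4.89 and 5.17 at 2 weeks, against 7.88, 11.23 and 11.21 in uninjured fibroblasts (at least 18.6-fold lower, adjusted p = 0.00536). Uninjured array 1 of *Wif1* was more than 3 units below the other uninjured arrays, and the call was lost without either 2-week array (highest adjusted p = 0.0767). *Frzb* was not called without 2-week array 1 or 2 or uninjured array 2 or 3, highest adjusted p = 0.164. The receptors *Fzd1* and *Fzd6* and the coreceptor *Lrp5* rose, with *Fzd6* at 9.16 and 8.81 at 2 weeks, against 5.84, 6.87 and 6.82 in uninjured fibroblasts (5.54-fold), *Fzd1* 2.72-fold (not called without any 1 of the 5 arrays, highest adjusted p = 0.328) and *Lrp5* 2.62-fold (not called without 2-week array 1 or 2, highest adjusted p = 0.124). *Nkd2*, an intracellular Wnt antagonist, had 12.79 and 12.46 at 2 weeks, against 9.64, 9.07 and 9.76 in uninjured fibroblasts (8.78-fold, adjusted p = 0.00135). The target genes *Axin2* and *Lef1* had 4.30 and 4.53 against 4.52, 5.02 and 5.24 and 4.69 and 4.52 against 4.10, 4.22 and 4.65 (2 weeks before uninjured), below background in both groups, and were not called.

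Of 43 TGF-β and activin genes, *Ltbp2*, *Tgfb3*, *Nrep* and *Pmepa1* were called higher, and none lower, while 8 were higher and 1 lower with the arrays numbered 1 as a block. *Tgfb3*, a ligand, had 17.36 and 17.38 at 2 weeks, against 14.88, 15.04 and 15.09 in uninjured fibroblasts (5.16-fold, adjusted p = 0.000101). *Tgfb1*, the best known ligand of the pathway, had 12.28 and 12.48 at 2 weeks, against 11.54, 12.27 and 12.38 in uninjured fibroblasts and was not called, and *Smad7*, an inhibitor that the pathway induces, had a difference of 1.06 (adjusted p = 0.0563, 0.029 with the block). *Pmepa1*, a feedback target of the pathway, rose 2.26-fold (not called without 2-week array 1 or 2, highest adjusted p = 0.191). Of 32 BMP pathway genes, *Bmp2*, a ligand, was called lower (at least 1.72-fold, not called without 2-week array 2, adjusted p = 0.0701), and *Bmp4* and *Grem1* were not called. Uninjured array 2 of *Bmp2* also lay below background. The block gave 2 higher and 1 lower of these 32.

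Growth factor and cytokine genes had 9 higher and 2 lower of 49, with 15 higher and 2 lower when the arrays numbered 1 were a block and 4 higher with the *Uty* block. *Ptn*, pleiotrophin, a heparin-binding growth factor, had 15.10 and 15.03 at 2 weeks, against 11.01, 10.81 and 10.78 in uninjured fibroblasts (18.5-fold, adjusted p = 3.38e-06). *Bdnf*, brain-derived neurotrophic factor, had 8.41 and 8.88 at 2 weeks, against 3.91, 5.05 and 4.88 in uninjured fibroblasts (at least 6.77-fold, adjusted p = 0.000191), and *Vegfd*, a lymphatic growth factor, had 13.84 and 14.10 at 2 weeks, against 9.84, 10.71 and 10.67 in uninjured fibroblasts (11.8-fold, adjusted p = 0.000126). *Angpt2* (a ligand of the endothelial receptor Tie2) rose 10.9-fold, *Pdgfc* at least 4.78-fold and *Hbegf* 4.95-fold (not called without 2-week array 1 or 2 or uninjured array 2, highest adjusted p = 0.201). *Ereg*, an EGF receptor ligand, rose at least 7.27-fold, not called without 2-week array 1 or 2 or uninjured array 2 or 3, highest adjusted p = 0.247. The falls were *Penk* and *Tslp*, an epithelial cytokine (-2.48, not called without 2-week array 1 or 2 or uninjured array 2 or 3, highest adjusted p = 0.354).

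Of 32 chemokine genes, 5 were lower (*Ccl8*, *Ccl7*, *Ccl11*, *Ackr3* and *Ackr2*) and 1 was higher. With the *Uty* block 1 was higher and none lower. *Ccl7*, a ligand for monocyte receptors, had 6.71 and 7.22 at 2 weeks, against 9.67, 10.83 and 10.19 in uninjured fibroblasts (9.63-fold lower, adjusted p = 0.00307, lost without 2-week array 1, adjusted p = 0.0662), and *Ccl8* was 10.6-fold lower (not called without 2-week array 1, adjusted p = 0.14). *Ccl11*, eotaxin, had a difference of -2.16 (not called without 2-week array 1 or 2, highest adjusted p = 0.235), and the atypical chemokine receptors *Ackr3* and *Ackr2* of -2.99 (not called without 2-week array 2, adjusted p = 0.0544) and -1.44 (not called without 2-week array 1, adjusted p = 0.113). *Cx3cl1*, fractalkine, had 7.01 and 7.08 at 2 weeks, against 4.71, 4.81 and 4.56 in uninjured fibroblasts (at least 2.23-fold, adjusted p = 0.000861). None of 24 macrophage markers was called in the plain fit or with the arrays numbered 1 as a block, and 2 were higher with the *Uty* block. Their summed linear signal was 2173 to 3647 at 2 weeks against 1055 to 1413 in uninjured fibroblasts, with *Lyz2* at 8.95 and 7.86 against 5.72, 6.14 and 5.91, *Csf1r* at 6.81 and 5.30 against 4.96, 4.69 and 5.22 and *C1qa* at 8.43 and 7.14 against 5.86, 7.06 and 6.91 (2 weeks before uninjured). The part of these cells in the chemokine result was not tested.

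Among 56 transcription factor genes of fibroblast and skeletal lineages, *Runx1*, a Runt factor of blood and skeletal progenitors, changed most, with 12.75 and 13.41 at 2 weeks, against 6.48, 7.18 and 7.63 in uninjured fibroblasts (63.3-fold, adjusted p = 3.38e-06). The list had 4 higher and 1 lower, 6 and 2 with the arrays numbered 1 as a block, and 1 higher with the *Uty* block. Both 2-week arrays lay over 5 units above the highest uninjured array. *Foxp1* rose 5.07-fold (not called without 2-week array 1 or 2, highest adjusted p = 0.156) and *Wwtr1*, which encodes the Hippo pathway coactivator TAZ, rose 2.22-fold (not called without 2-week array 1 or 2, highest adjusted p = 0.136). The 2 *Runx1* promoters of the RefSeq table (GRCm38.p6, minus strand) are shown because the factor rose most among those listed and because the letters of its own motif were searched. In capitals are matches to TGTGGT or its reverse complement in the first, and to the TEAD letters GGAATG in the second.
Runx1 promoter 1, chr16:92826025-92826324: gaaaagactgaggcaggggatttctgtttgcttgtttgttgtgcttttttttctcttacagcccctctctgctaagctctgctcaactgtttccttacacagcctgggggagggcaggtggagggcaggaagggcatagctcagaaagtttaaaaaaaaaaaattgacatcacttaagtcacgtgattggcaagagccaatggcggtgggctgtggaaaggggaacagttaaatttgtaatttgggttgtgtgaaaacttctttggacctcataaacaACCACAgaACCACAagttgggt
Runx1 promoter 2, chr16:92697280-92697579: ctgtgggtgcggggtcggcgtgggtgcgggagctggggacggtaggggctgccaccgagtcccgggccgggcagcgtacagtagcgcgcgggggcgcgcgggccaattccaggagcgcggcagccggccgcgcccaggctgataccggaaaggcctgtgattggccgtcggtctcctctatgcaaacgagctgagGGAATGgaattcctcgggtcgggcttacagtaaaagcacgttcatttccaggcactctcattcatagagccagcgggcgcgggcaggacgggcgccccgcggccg

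A search of all RefSeq promoters (300 bases around each start, mostly before it, either strand) for 5 motifs gave the following shares, as a description. The letters TGTGGT (RUNX) were held by 11.7% of 240 promoters of genes called higher and 13.1% of 229 promoters of genes called lower, against 14.3% of 19143 promoters of all genes tested. GGAATG (TEAD) was held by 17.5%, 13.1% and 13.4%, TGANTCA (AP-1) by 4.58%, 6.11% and 7.15%, and ACAATGG (SOX) by 2.08%, 2.62% and 2.92%, in the same order. GTCTAGAC (SMAD) was in none of the called promoters and in 0.24% of all. Promoters were matched for 181 of the 255 higher and 169 of the 231 lower genes.

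*Mir675*, the only miRNA gene of the table called at 2 weeks, had 11.96 and 11.69 at 2 weeks, against 5.16, 6.27 and 5.96 in uninjured fibroblasts (65.2-fold, adjusted p = 9.87e-06). The hairpin lies inside the long RNA *H19*, and a labelled array row for it cannot be told apart from that host RNA. Both mature sequences (GRCm38.p6, chromosome 7) are shown with bases 2 to 8, the seed, in capitals.
mmu-miR-675-5p: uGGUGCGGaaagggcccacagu
mmu-miR-675-3p: cUGUAUGCccuaaccgcucagu

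The contractile cytoskeleton list had 3 genes higher of 37, and none lower, against 9 higher with the arrays numbered 1 as a block and 1 with the *Uty* block. *Palld*, palladin of stress fibres, had 13.43 and 12.97 at 2 weeks, against 7.00, 8.17 and 8.13 in uninjured fibroblasts (43.2-fold, adjusted p = 8.61e-06), *Actn1*, α-actinin 1, had 10.39 and 9.87 at 2 weeks, against 7.32, 6.41 and 6.78 in uninjured fibroblasts (9.81-fold, adjusted p = 0.000541) and *Csrp2* rose 3.27-fold (not called without 2-week array 1 or 2, highest adjusted p = 0.128). *Acta2*, the smooth muscle actin gene that defines myofibroblasts, had 12.73 and 12.18 at 2 weeks, against 8.82, 11.54 and 11.07 in uninjured fibroblasts and was not called (1.98 ± 0.63, adjusted p = 0.157, 0.0728 with the block). Uninjured array 1 of *Acta2* lay more than 2 units below the others. *Tagln* was not called in the plain fit (adjusted p = 0.185, 0.0496 with the block). *Myh11* and *Cnn1*, markers of smooth muscle, were near background in both groups.

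No gene of the cell cycle list (30 measured), the replication list (26) or the cell cycle inhibitor list (19) was called with limma, and the block fit also called none. *Mki67* had 5.83 and 5.37 at 2 weeks, against 5.84, 4.92 and 5.47 in uninjured fibroblasts, *Cdk1* had 5.34 and 4.23 against 4.88, 5.31 and 5.13 and *Top2a* 5.24 and 5.69 against 5.12, 5.91 and 5.60 in the same order, all close to or below background. *Ccna2*, a cyclin, had 5.38 and 4.85 against 6.07, 5.65 and 5.48 in that order. Of 22 apoptosis inhibitors only *Faim2*, a Fas inhibitory protein that the study had selected, was called, with 9.52 and 9.83 at 2 weeks, against 6.46, 7.64 and 7.79 in uninjured fibroblasts (5.2-fold, adjusted p = 0.00846, not called without 2-week array 1 or 2, highest adjusted p = 0.124). *Bcl2l1*, *Bag5* and *Bcl2* had differences of -0.49, -0.24 and 0.19 and were not called.

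Of 43 detoxification genes, 12 were lower and none higher, 9 of them glutathione S-transferases, where 1.18% of all genes were lower. With the arrays numbered 1 as a block 13 were lower, and with the *Uty* block 2. *Gstt1* had 10.89 and 10.89 at 2 weeks, against 13.47, 13.69 and 13.70 in uninjured fibroblasts (6.63-fold lower, adjusted p = 0.000101), *Gstm1* had 13.84 and 13.82 at 2 weeks, against 16.28, 15.99 and 16.23 in uninjured fibroblasts (5.04-fold lower, adjusted p = 0.00124) and *Gsta3* was 7.97-fold lower (not called without 2-week array 1 or 2, highest adjusted p = 0.0684). The Gst genes are close relatives, and probes may share sequence. *Gpx3*, a secreted glutathione peroxidase, was 2.21-fold lower (not called without 2-week array 1 or 2, highest adjusted p = 0.173). Lipid and retinoid genes had 7 lower and 2 higher of 41, with *Dhrs3*, which reduces retinal, rising 3.83-fold (adjusted p = 0.00208) and *Crabp2*, a retinoic acid carrier, rising 6.33-fold (not called without 2-week array 1 or 2 or uninjured array 2 or 3, highest adjusted p = 0.221), and *Adh1*, *Ces1d* and *Abca6* falling. The arrays numbered 1 as a block gave 8 lower and 4 higher of the 41, and the *Uty* block 1 lower and none higher.

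Interferon response genes had 2 lower of 30 (*Mx2*, -1.89, not called without 2-week array 1, adjusted p = 0.0541, and *Cmpk2*, -1.44, not called without 2-week array 1 or 2 or uninjured array 2 or 3, highest adjusted p = 0.364, 4 with the block and none with the *Uty* block, with a list median of -0.59), and of 33 oxidative phosphorylation genes *Atp5o* was lower (-1.28, not called without 2-week array 1 or 2 or uninjured array 2 or 3, highest adjusted p = 0.338, list median -0.44). *C4b*, a complement component, rose 4.59-fold (adjusted p = 0.00164). *Hif1a* rose 3.43-fold (not called without 2-week array 1 or 2 or uninjured array 2 or 3, highest adjusted p = 0.251), and *Egln3*, a hydroxylase that marks HIF for decay, was 3.01-fold lower (not called without 2-week array 1 or 2 or uninjured array 3, highest adjusted p = 0.233). The unfolded protein response list had 1 gene higher of 29, *Pdia5* (not called without 2-week array 1 or uninjured array 2 or 3, highest adjusted p = 0.345), and the cholesterol list none of 19.

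Adhesion molecules and channels with large rises were chosen after their values were seen. *Cdh2*, N-cadherin, a junction protein also in the study's own selection, had 12.90 and 12.60 at 2 weeks, against 7.89, 8.42 and 8.02 in uninjured fibroblasts (24.8-fold, adjusted p = 1.27e-06), and *Fat4*, a giant cadherin of Hippo signalling, had 13.33 and 13.32 at 2 weeks, against 8.85, 9.25 and 8.77 in uninjured fibroblasts (20.6-fold). *Piezo2*, a channel opened by stretch, had 12.95 and 13.39 at 2 weeks, against 7.84, 9.54 and 9.29 in uninjured fibroblasts (19.5-fold, adjusted p = 0.00024), and *Cacna1c*, the L-type calcium channel, rose 4.16-fold. *Nox4*, an oxidase that makes hydrogen peroxide, rose 11.4-fold and *Uts2r*, the urotensin receptor, at least 2.59-fold. *Cemip*, a hyaluronan-degrading protein in the study's own graphs, had 8.38 and 7.95 at 2 weeks, against 3.71, 4.40 and 4.25 in uninjured fibroblasts (at least 4.84-fold, adjusted p = 0.000218). *Ncam1*, a neural adhesion molecule that is also on the Schwann cell list, had 11.62 and 11.49 at 2 weeks, against 7.73, 9.09 and 9.12 in uninjured fibroblasts (7.49-fold, not called without 2-week array 1 or 2, highest adjusted p = 0.1). Receptors that fell included *Ntrk3*, a neurotrophin 3 receptor (5.96 and 6.15 at 2 weeks, against 8.87, 8.88 and 8.63 in uninjured fibroblasts, 6.67-fold lower), and *Ramp2*, a coreceptor for adrenomedullin (4.72-fold lower).

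Markers of other cells gave the following. No neutrophil, lymphocyte, epicardial, cardiomyocyte or adipocyte marker was called in the plain fit of 12, 13, 14, 22 and 9 measured. The cardiomyocyte list had a median of -0.65 in that fit, and 1 of its genes was lower with the arrays numbered 1 as a block. Summed signals were 388.8 to 615.7 against 359.8 to 438.6 for neutrophils and 2351 to 3261 against 3953 to 20170 for cardiomyocytes (2 weeks before uninjured). Endothelial markers summed to 68280 and 14360 in the 2-week arrays 1 and 2, against 34180, 68450 and 63620, and *Cdh5* had 11.67 and 6.88 against 8.44, 11.06 and 10.67 and *Kdr* 11.58 and 6.88 against 8.99, 10.87 and 10.71. Of 17 endothelial genes, *Erg*, an endothelial transcription factor, was called higher, with 11.83 and 10.26 at 2 weeks, against 5.96, 6.65 and 6.38 in uninjured fibroblasts (adjusted p = 0.016, not called without 2-week array 1 or 2 or uninjured array 3, highest adjusted p = 0.226), while *Pecam1* was not called. The part of endothelial cells in the *Erg* result was not tested. Pericyte and smooth muscle markers summed to 40870 to 49830 against 23380 to 25450, and of 15 *Pdgfrb* was higher and *Vtn* lower.

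The 2-week fibroblasts were also set against those of 7 days, when the scar still forms. Of 19505 genes 310 were called (1.59%), 78 higher (0.4%) and 232 lower (1.19%), and the 2-week arrays are shared with the comparison above. Of 30 cell cycle genes, 15 were lower than at 7 days and none higher, and 4 of 26 replication genes were lower. *Cdk1* had 5.34 and 4.23 at 2 weeks, against 10.41, 10.93 and 9.63 at 7 days (at least 21.7-fold lower, adjusted p = 7.82e-05), and *Mki67* had 5.83 and 5.37 at 2 weeks, against 10.70, 8.84 and 8.66 at 7 days (at least 11.4-fold lower, adjusted p = 0.00704, not called without 2-week array 1 or 2, highest adjusted p = 0.118). Macrophage genes were lower as well, with 18 of 24 called: *Ms4a7* had 9.41 and 8.39 at 2 weeks, against 15.44, 13.28 and 14.99 at 7 days (51-fold lower, not called without 2-week array 2, adjusted p = 0.118) and *C1qa* had 8.43 and 7.14 at 2 weeks, against 13.73, 11.86 and 13.60 at 7 days (adjusted p = 0.00465, not called without 2-week array 2, adjusted p = 0.105). The summed macrophage signal was 2173 to 3647 at 2 weeks, against 24210 to 122200 at 7 days. The part of macrophage RNA in the other differences from 7 days was not tested. *H2bc3*, a histone gene, and *Pbk*, a mitotic kinase, differed by -5.47 and -5.01, and *Tyrobp*, a myeloid adaptor, was at least 16.2-fold lower.

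*Acta2* was 6.7-fold lower at 2 weeks than at 7 days (12.73 and 12.18 at 2 weeks, against 14.56, 15.54 and 15.51 at 7 days, adjusted p = 0.0487, not called without 2-week array 1 or 2 or 7-day array 2 or 3, highest adjusted p = 0.371), and *Adam12* was 12.8-fold lower (adjusted p = 7.82e-05). Higher at 2 weeks were *Chad* (11.10 and 11.27 at 2 weeks, against 7.12, 7.45 and 8.07 at 7 days, 12.5-fold, adjusted p = 0.000774), *Angptl7*, an angiopoietin-like secreted protein (23.6-fold, adjusted p = 0.00632, not called without 2-week array 1 or 2, highest adjusted p = 0.102), *Cytl1* (37.8-fold, not called without 2-week array 1 or 2, highest adjusted p = 0.067) and *Gsta3* (9.69-fold, not called without 2-week array 1 or 2, highest adjusted p = 0.0726). Of the 37 resting fibroblast genes 5 were higher than at 7 days and none was lower (median 0.75), *Ces1d* among them (2.53 ± 0.46, not called without 2-week array 1 or 2 or 7-day array 2, highest adjusted p = 0.162). Without 2-week array 1 or 2, 10 or 13 genes were called higher and 53 or 30 lower than at 7 days.

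Against 4 weeks, 5 genes were called (0.0256%), 3 higher (0.0154%) and 2 lower (0.0103%) at 2 weeks. *Cthrc1* had 13.97 and 13.65 at 2 weeks, against 11.62, 11.30 and 10.73 at 4 weeks (2.60 ± 0.31, adjusted p = 0.00675), *Tnc* had 14.59 and 14.29 at 2 weeks, against 10.71, 11.92 and 11.82 at 4 weeks (2.95 ± 0.40, adjusted p = 0.0213) and *Mir675* had 11.96 and 11.69 at 2 weeks, against 8.62, 6.89 and 7.72 at 4 weeks (4.08 ± 0.46, adjusted p = 0.00547). *Chad* was lower (11.10 and 11.27 at 2 weeks, against 14.65, 13.45 and 13.54 at 4 weeks, -2.69 ± 0.40, adjusted p = 0.0456), as was *Uts2r* (-2.75 ± 0.30, adjusted p = 0.00547). All 5 calls were lost without 2-week array 1 or array 2, *Tnc* was also lost without 4-week array 3 and *Chad* without 4-week array 2 or 3. At an unadjusted p under 0.05 (limma), 423 genes were higher and 526 lower than at 4 weeks. A share of 0.05 of genes would pass that threshold without any difference, so these counts are no sign of further change.

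Over the 5 groups of the series, uninjured first and then by time after MI from 3 days on, the group means were 6.05, 14.29, 15.10, 13.81 and 11.21 for *Cthrc1*, 9.06, 7.26, 12.90, 14.81 and 15.26 for *Comp* and 7.90, 4.38, 7.55, 11.19 and 13.88 for *Chad*. *Ces1d* had 13.95, 9.49, 6.15, 8.67 and 10.63 and *Tcf21* 13.18, 10.84, 11.20, 11.73 and 12.09 in the same order. *Cthrc1* and *Tnc* were lower at 4 weeks than at 2 weeks, *Chad* was higher at 4 weeks, and the difference of *Comp* between 2 and 4 weeks was not called.

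**Figure D4:**
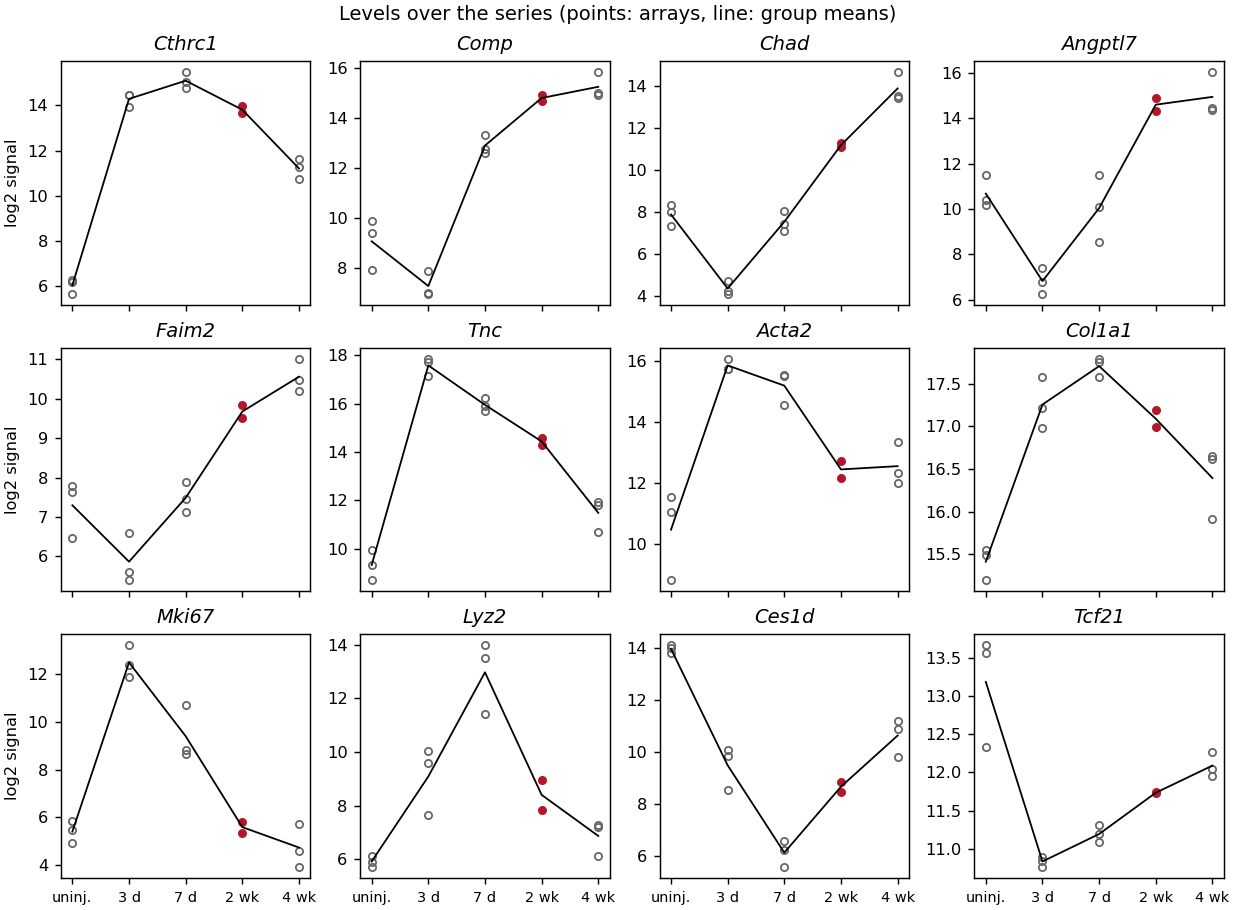
Log2 signal of 12 genes in every array of the series, from uninjured through 4 weeks after MI, with the group means joined and the 2-week arrays filled red. Cthrc1 and Tnc lie lower at 4 weeks than at 2 weeks, while Chad lies higher.

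**Figure D5:**
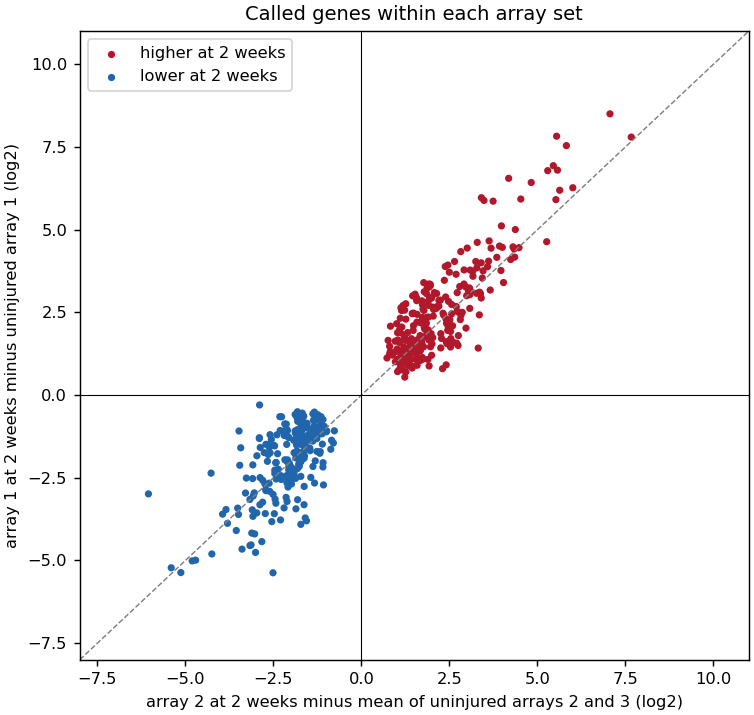
Log2 difference of the 486 called genes within the arrays numbered 1 (vertical) and within the remaining arrays (horizontal), with the line of equal difference dashed. All points lie in the quadrants of equal sign, as they must where the arrays of the groups do not overlap. The median size is 1.98 within arrays numbered 1 and 1.91 within the others.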

How the data were processed

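*Tcf21* lineage–traced fibroblasts were profiled on Clariom S mouse arrays, and 5 of 14 arrays form the comparison. The values are log2 signals deposited by the authors as 1 table of the series. The labels name Affymetrix Expression Console, while the summarization method and genome build are not given in the sources used here. The table held 28846 rows: 6640 control rows, 2634 rows without a gene name and 19572 with 1 gene symbol from the platform annotation. The 55 genes with more than 1 row were represented by 1 row each, which gave 19505 genes. The number of arrays limits the precision. If replicates shared a source that the labels do not give, the p-values measure only the spread between these arrays.

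The log2 signals entered limma (version 3.58.1, R 4.3.3) without further normalization, with 1 mean for each of the 5 groups, and p-values were adjusted over all genes by the Benjamini-Hochberg method. The threshold was 0.05. Arrays with the same number in different groups deviated together from their group means (correlations 0.12 to 0.63), so the replicate number was also fitted as a block, and the arrays numbered 1 as a block against all others. Among arrays numbered 1 these correlations were 0.37 to 0.63. Arrays numbered 2 against arrays numbered 3 of other groups had 0.12 to 0.43, with the same lowest value as arrays that share a number. The script was tested on simulated data with noise drawn independently for each array. For 2 weeks against uninjured it called 10.4% of 2-fold, 65.7% of 4-fold and 92.4% of 8-fold changes. A gene that was not called may therefore have changed. Alternatives were array centring, quantile normalization, array weights, a background filter, only the groups compared, leaving out each array and the methods' t-test.

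Named genes were the 15 largest rises and falls among called genes whose groups did not overlap (clone names passed over), up to 6 called members and the defining members of each of 43 gene lists, the genes of the study's bar graphs, and the 6 largest differences against 7 days and 4 weeks in each direction. Members and lists were chosen with earlier results of these data known. *Ccn2*, *Eln*, *Tnxb*, *Smoc2*, *Mfap4*, *Gpx3*, *Tnmd*, *Frzb*, *Fzd1*, *Lrp5*, *Pdgfc*, *Hbegf*, *Tslp*, *Dhrs3*, *Bgn*, *Aspn* and *Smad7* lay outside this rule and were chosen after their values were seen. Promoter and miRNA sequences came from RefSeq tables (GRCm38.p6). Some genes were not analysed here.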

Additional observations from a re-analysis of the deposited data

Results flagged for a closer look

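Genes that moved in opposite directions at different times were looked for among the 486 called at 2 weeks. There were 19 whose difference from uninjured fibroblasts was called with the opposite sign at 3 days, and none at 7 days or 4 weeks. For all 19 the difference of 2 weeks minus 3 days was itself called (limma, adjusted over all genes). Called differences of opposite sign add up here, so this outcome was largely set by how the 19 were picked. Matrix and matrix-processing genes and the secreted *Angptl7* differed by 7.78 for *Angptl7*, 7.55 for *Comp*, 6.81 for *Chad*, 4.41 for *Eln*, 4.41 for *Abi3bp* and 3.54 for *P3h2*. The differences in this paragraph are not bounds. For *Chad* all 3-day arrays lay below background (4.25, 4.76 and 4.14), so part of its 6.81 lies under that level. The secreted or signalling genes *Stc2*, *Gas6*, *Tafa5*, *Gng8*, *Boc*, *Lrp5* and *Rcan2* differed by 4.1, 3.47, 2.67, 4.75, 2.75, 2.56 and 3.44 in that order. *Faim2*, the Fas inhibitory protein, differed by 3.81, and *Klf13*, *Mn1*, *Sertad4* and *Strbp* by 1.95, 1.99, 2.72 and 2.7. The histone gene *H2ac20* was the 1 gene of the 19 lower at 2 weeks than at 3 days, with -3.13. For all 19 the difference of 2 weeks minus 3 days was called in the same direction in each of the 5 fits that left out a 2-week or a 3-day array. That too was largely set by the selection. Against uninjured fibroblasts, *Chad*, *Comp* and *Eln* kept their call in all 5 fits without 1 array of the 2-week or uninjured group, and the remaining 16 lost it in at least 1. Without 2-week array 2 alone the call of *P3h2* was lost (adjusted p = 0.0809), and without either 2-week array those of *Angptl7*, *Faim2*, *Gas6*, *Gng8*, *H2ac20*, *Lrp5* and *Mn1* (highest adjusted p = 0.132, 0.124, 0.154, 0.179, 0.151, 0.124 and 0.136 in that order). *Stc2* also lost it without uninjured array 3 (highest adjusted p = 0.14). *Abi3bp*, *Boc*, *Klf13*, *Sertad4* and *Tafa5* kept it in 1 of the 5 fits, that without uninjured array 2 for *Tafa5* and without uninjured array 1 for the other 4 (highest adjusted p = 0.2, 0.236, 0.374, 0.31 and 0.305 in that order), and *Rcan2* and *Strbp* in none (0.379 and 0.447). These 19 share the uninjured arrays in both differences, and the difference of 2 weeks minus 3 days and the fits that leave out its arrays were chosen after seeing the data.

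Among 2634 transcript cluster rows that have no gene name here, 42 were called at 2 weeks against uninjured (1.59%), 13 higher and 29 lower. No group held the 4 arrays that a search for single outlying arrays needs.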

How the results depend on the processing

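All 486 calls kept their direction under every alternative in which they were measured. Where 1 array was left out or arrays were weighted, this follows from arrays that do not overlap. The 2 groups alone and the t-test use the same difference of group means, so the direction could not change there. Genes called higher and lower against uninjured numbered 422 and 409 with the replicate block, 477 and 491 with arrays numbered 1 as a block, 759 and 891 with array weights, and 77 and 29 with a block (the *Uty* block) for the arrays in which both Y-linked genes were low. With the methods' t-test, 825 and 857 had an unadjusted p under 0.05, and 0 and 0 after Benjamini-Hochberg. Without any difference, a share of 0.05 of all genes would pass the unadjusted threshold in each comparison. Leaving out 1 array gave 99 to 372 higher and 51 to 435 lower. Against 7 days, the replicate block gave 310 and 532, arrays numbered 1 as a block 392 and 656, array weights 587 and 810, the *Uty* block 47 and 123, the 2 groups alone 36 and 80, the t-test 722 and 1187 unadjusted and 0 and 0 adjusted, and leaving out 1 array 10 to 198 and 30 to 295. The background filter gave 118 higher and quantile normalization 124 higher. Against 4 weeks, the replicate block gave 5 and 1, arrays numbered 1 as a block 11 and 6, array weights 38 and 39, the *Uty* block 0 and 0, the 2 groups alone 0 and 0, the t-test 404 and 622 unadjusted and 0 and 0 adjusted, and leaving out 1 array 0 to 10 and 0 to 5. The cause of these shifts was not tested. Of 185 named genes called against uninjured, the block by arrays numbered 1 lost none and the *Uty* block lost 130. For single genes the *Uty* block was added after seeing the data.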

Other observations

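The 10 neighbouring zinc finger genes of chromosome 2 (*Zfp965* to *Zfp971*), chosen after their values were seen, were all called lower at 2 weeks: *Zfp965*, *Zfp966*, *Zfp970*, *Zfp971*, *Gm14288*, *Gm14305*, *Gm14308*, *Gm14326*, *Gm14327* and *Gm14434*. None kept its call in all 5 fits without 1 array: 5 of them kept it in none, and 3 was the highest number of fits for any. Without 2-week array 1 or array 2, 0 of the 10 were called, and without uninjured array 1, 2 or 3, 5, 4 and 2 were (highest adjusted p of these fits 0.325). They are near-identical copies, so their probes may share sequence. Of 16 measured genes from the first to the last, 10 were lower and 0 higher, with a median of -2.02. The 10 lower genes are the chosen ones, which also set both ends of this stretch. Its count and median therefore follow largely from the choice. *Gm14308* had 10.39 and 10.12 at 2 weeks, against 13.24, 12.85 and 12.81 in uninjured fibroblasts. Its 3-day arrays had 10.48, 12.19 and 12.15, its 7-day arrays 12.66, 12.96 and 10.33, and its 4-week arrays 12.22, 12.25 and 12.23, so that 3-day array 1 and 7-day array 3 were as low as the 2-week arrays.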
